A study of Mus musculus with 6 samples.

Results

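The blood-brain barrier genes described here are 10 genes taken by symbol from the 32285 genes of the deposited single-cell count matrix. They were Cldn5, Ocln and Tjp1 of the tight junction, the lipid transporter Mfsd2a, the efflux pumps Abcb1a and Abcg2, and the solute carriers Slc2a1, Slco1a4, Slc16a1 and Slc7a5. Their UMI counts, that is, counts of distinct captured transcripts, were described across brain cell classes and across the 6 numbered libraries of the matrix. Another 69 genes of the same pathway were listed by role for comparison.

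Neuron-depleted cells of the cortex were collected from mice with a permanently occluded middle cerebral artery (pMCAO), from the stroke side (ipsilateral) or the matching area of the other side (contralateral). The groups were contralateral and ipsilateral at 1, 12 and 24 h, with 1 library each. All came from male RGS5::GFP het mice of 8 to 12 weeks, in which GFP replaces 1 allele of Rgs5, so every group, controls included, carried that change. By the labels, kit v3 was used at 1 and 24 h and v3.1 at 12 h. Nothing in the sources used here ties a library number to a group, so libraries are given by number only, none is ascribed to a side or a time, and no test between conditions was made. Intervals are exact 95% intervals that cover counting error only, since cells of 1 library are not replicates.

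In the brain, endothelial cells are sealed to each other by tight junctions, so that solutes have to cross the cell itself. Carriers bring in glucose, amino acids and other nutrients, and efflux pumps return many lipophilic compounds to the blood. Endothelial Wnt/beta-catenin signalling is known to maintain this programme, and transport by vesicles is kept low.

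After filtering there were 17323 cells, with a median of 5336 UMIs, of which 1.80% were called doublets and were kept. The libraries held 1220 to 5869 cells, with medians of 5052 to 5659 UMIs, and pairs of libraries shared 0 to 5 barcodes. Of 25 clusters, 23 could be named from marker lists into 12 classes, while 2 clusters with 352 cells stayed unnamed. The endothelial-like class held 2725 cells, 170 to 726 per library, with all 11 endothelial markers detected and highest for Flt1, at 4019 CPM (UMIs of a gene per 1000000 UMIs of the class). The 10 barrier genes and the 69 listed genes were left out of the clustering and of the markers, so that their levels did not define the class.

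Promoter sequences are shown for 4 of the genes because they spanned the range of the tip-like ratios over all libraries, from Slco1a4 and Mfsd2a with the lowest ratios to Slc2a1 and Cldn5 with the highest. They are the 300 bases around the start site in RefSeq, build GRCm38.p6, at chr16:18776597-18776896 (plus strand), chr4:122961139-122961438 (minus strand), chr4:119108495-119108794 (plus strand) and chr6:141856171-141856470 (minus strand). Capitals mark ACGTG, the core of hypoxia response elements, and CTTTG, the core of TCF/LEF elements of the Wnt pathway, each searched on both strands (as CACGT and CAAAG on the other).
Cldn5: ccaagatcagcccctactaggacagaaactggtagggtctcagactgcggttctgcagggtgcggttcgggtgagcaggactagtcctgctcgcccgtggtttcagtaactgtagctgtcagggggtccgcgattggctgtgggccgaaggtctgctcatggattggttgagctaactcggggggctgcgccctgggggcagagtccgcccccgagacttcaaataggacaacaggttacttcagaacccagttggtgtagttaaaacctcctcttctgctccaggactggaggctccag
Mfsd2a: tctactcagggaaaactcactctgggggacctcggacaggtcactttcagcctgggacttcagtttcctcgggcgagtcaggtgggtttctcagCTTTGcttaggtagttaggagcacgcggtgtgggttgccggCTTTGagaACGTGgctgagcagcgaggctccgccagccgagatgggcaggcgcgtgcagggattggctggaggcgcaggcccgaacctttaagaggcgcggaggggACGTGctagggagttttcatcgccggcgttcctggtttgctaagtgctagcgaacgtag
Slc2a1: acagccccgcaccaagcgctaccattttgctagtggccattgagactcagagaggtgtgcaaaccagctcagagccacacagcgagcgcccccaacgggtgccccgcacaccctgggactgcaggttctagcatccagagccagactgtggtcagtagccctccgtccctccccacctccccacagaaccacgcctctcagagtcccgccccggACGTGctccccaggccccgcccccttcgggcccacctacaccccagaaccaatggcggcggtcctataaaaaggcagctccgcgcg
Slco1a4: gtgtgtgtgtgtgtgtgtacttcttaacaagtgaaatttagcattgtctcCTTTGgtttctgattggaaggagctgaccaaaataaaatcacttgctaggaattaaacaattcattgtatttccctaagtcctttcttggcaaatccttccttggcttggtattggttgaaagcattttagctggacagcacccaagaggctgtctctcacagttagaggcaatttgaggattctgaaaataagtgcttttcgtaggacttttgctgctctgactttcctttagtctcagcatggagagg
ACGTG was in 4 of the 12 promoters listed for 9 of the 10 genes, against 19.6% of 32851 promoters of the same length, and CTTTG was in 5 of the 12, against 53.9%. Mfsd2a had both motifs, Slc2a1 had ACGTG, Slco1a4 had CTTTG and Cldn5 had neither in this window. A match is a run of letters and was not tested as a site.

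All 10 genes were highest in endothelial-like cells among the 12 classes. For 8 of the 10 the endothelial level was at least 2 times that of every other class, against 2.59% of the 13975 genes with at least 10 CPM in some class. The median ratio of the 10 genes to the next class was 12.3, against 0.303 over those genes. Tjp1 and Mfsd2a were the exceptions, with pericyte-like and astrocyte-like cells close behind.

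**Figure D1:**
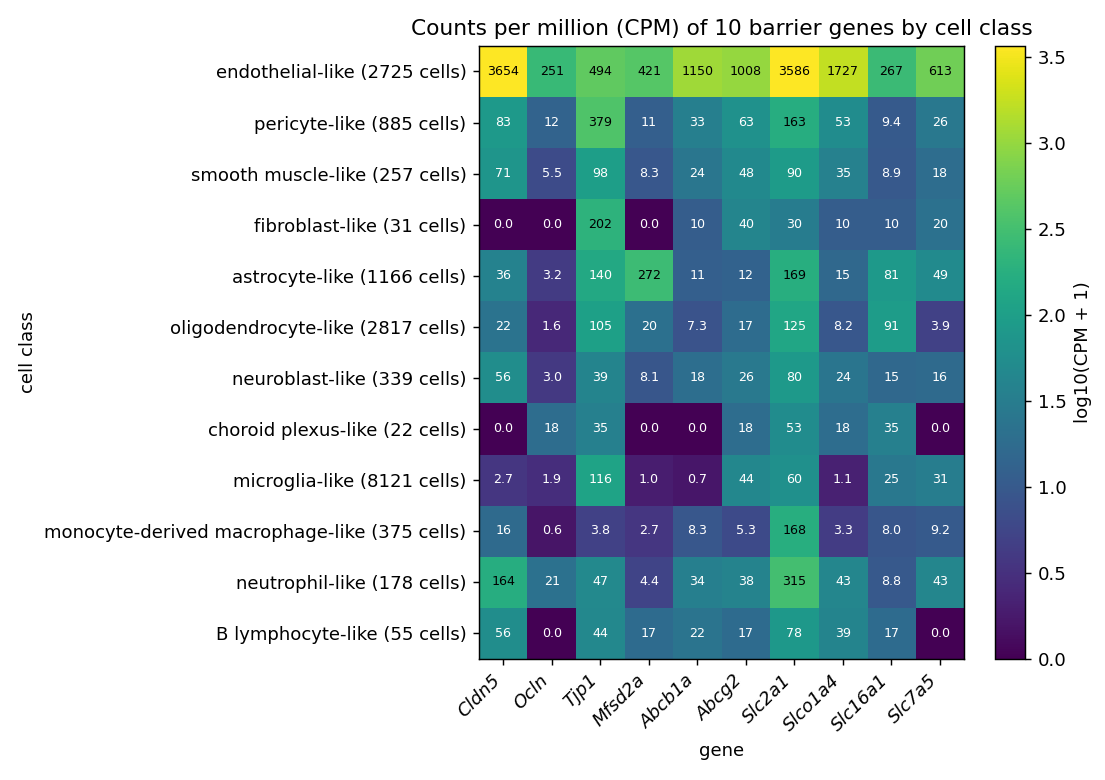
CPM of each barrier gene (columns) in 12 cell classes (rows, with cell numbers); colour is log10(CPM + 1) and each cell prints its CPM. The endothelial-like row is highest in every column, and pericyte-like cells at 379 CPM for Tjp1 and astrocyte-like cells at 272 CPM for Mfsd2a come nearest to it.

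Of the junction genes, Cldn5, the main claudin of brain endothelium, was at 3654 CPM in endothelial-like cells, 22.3 times (18.5 to 27.0) the 164 CPM of neutrophil-like cells, which came next. Ocln, a transmembrane protein of the tight junction, was at 251 CPM, 12.2 times (7.27 to 22.4) neutrophil-like cells at 20.5 CPM. Within the 3 libraries with enough neutrophil-like cells the ratio was 14.97 to 23.4 for Cldn5 and 6.31 to 24.2 for Ocln. Neutrophil-like cells held only 14 UMIs of Ocln in all libraries, so its range rests on few UMIs. Tjp1 encodes the scaffold protein ZO-1, which links junction proteins to actin. It was at 494 CPM in endothelial-like and 379 CPM in pericyte-like cells, a ratio of 1.30 (1.23 to 1.39), and at 202, 140, 116 and 105 CPM in fibroblast-like, astrocyte-like, microglia-like and oligodendrocyte-like cells. The ratio of endothelial-like to pericyte-like cells for Tjp1 lay between 1.11 and 1.44 in all 6 libraries. Unlike Cldn5 and Ocln, Tjp1 was thus spread over vascular and glial classes. Tjp1 overlaps Gm44794 and Gm44792 on its own strand, so that reads could be shared between them.

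Mfsd2a, a carrier of lysophosphatidylcholine lipids that is also known to hold down vesicle transport, was at 421 CPM in endothelial-like and 272 CPM in astrocyte-like cells, a ratio of 1.54 (1.47 to 1.63). That ratio was 1.51 to 2.37 over the 6 libraries, and the third class, oligodendrocyte-like cells, was at 19.9 CPM. Mfsd2a was therefore a gene of 2 classes here, with the astrocyte-like level 13.7 times (12.4 to 15.1) the third.

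Abcb1a, which encodes P-glycoprotein, was at 1150 CPM in endothelial-like cells, 34.1 times (22.7 to 53.8) neutrophil-like cells at 33.7 CPM. Abcg2, which encodes the efflux pump BCRP, was at 1008 CPM, 16.1 times (14.1 to 18.4) pericyte-like cells at 62.7 CPM. Microglia-like cells held 43.6 CPM of Abcg2 (41.7 to 45.6) but only 0.667 CPM of Abcb1a and 2.71 CPM of Cldn5. Within single libraries the ratio for Abcg2 was 10.4 to 23.4, and in the 3 libraries with a value that for Abcb1a was 17.6 to 29.4. Abcb1a overlaps Gm42684 on its own strand.

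Slc2a1, the glucose transporter GLUT1, was at 3586 CPM, 11.4 times (9.95 to 13.1) neutrophil-like cells at 315 CPM. Slco1a4, an organic anion transporter, was at 1727 CPM, 32.5 times (28.2 to 37.8) pericyte-like cells at 53.1 CPM. Slc7a5 encodes LAT1, the carrier of large neutral amino acids, and was at 613 CPM, 12.4 times (11.1 to 13.8) astrocyte-like cells. Slc16a1, the monocarboxylate transporter MCT1 that carries lactate and ketone bodies, was at 267 CPM, 2.93 times (2.77 to 3.09) oligodendrocyte-like cells at 91.3 CPM, with astrocyte-like cells at 80.6 CPM. In the libraries that ratio ranged from 1.78 to 6.06 for Slc16a1, from 17.6 to 130 for Slco1a4 and from 5.02 to 25.7 for Slc7a5. It ranged from 7.57 to 9.50 for Slc2a1 in the 3 libraries with a value. The 130 for Slco1a4, in library 4, stood against only 7.44 CPM in pericyte-like cells. Slc16a1 overlaps Gm43581 and Gm43585 on its own strand, and Slc2a1 overlaps Mir1957a on its own.

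After each cell was thinned to 1000 UMIs, 93.0% of endothelial-like cells had a UMI of Cldn5, 91.7% of Slc2a1, 70.3% of Slco1a4, 63.2% of Abcb1a and 59.8% of Abcg2. The shares were 41.4% for Slc7a5, 37.1% for Tjp1, 31.9% for Mfsd2a, 22.4% for Ocln and 18.7% for Slc16a1. In microglia-like cells, thinned alike, the share was 0.185% for Cldn5, 0.0246% for Abcb1a and 0.0616% for Slco1a4, but 10.9% for Tjp1, 5.32% for Slc2a1 and 4.42% for Abcg2. Before thinning 99.3% of endothelial-like cells had a UMI of Cldn5 and 44.7% of Slc16a1.

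Low levels outside the endothelium were read against the 11 endothelial markers in the same cells, since free RNA of a suspension can add UMIs to any class. Barcodes with 1 to 50 UMIs, too few for a cell, carried 224 CPM of Cldn5, 273 CPM of Slc2a1 and 99.9 CPM of Tjp1. In neutrophil-like cells the 11 markers reached 3.20% to 12.2% of their endothelial levels and 0 of the 10 barrier genes lay above that range, with Cldn5 at 4.49%, Slc2a1 at 8.79% and Abcb1a at 2.93%. A UMI of Slc2a1 was found in 38.2% of neutrophil-like cells, or 20.8% after thinning, and a UMI of Cldn5 in 6.18%, or 3.93%. Whether free RNA alone gave these UMIs was not tested. In astrocyte-like cells the markers reached 0.603% to 1.40%, and 5 genes exceeded them, Mfsd2a at 64.8%, Slc16a1 at 30.2%, Tjp1 at 28.4%, Slc7a5 at 8.08% and Slc2a1 at 4.73%. In oligodendrocyte-like cells, with markers at 0.439% to 1.64%, Slc16a1 stood at 34.2%, Tjp1 at 21.3%, Mfsd2a at 4.72%, Slc2a1 at 3.50% and Abcg2 at 1.69%. In pericyte-like cells only Tjp1, at 76.7%, exceeded all 11 markers, of which Emcn reached 47.8%.

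**Figure D2:**
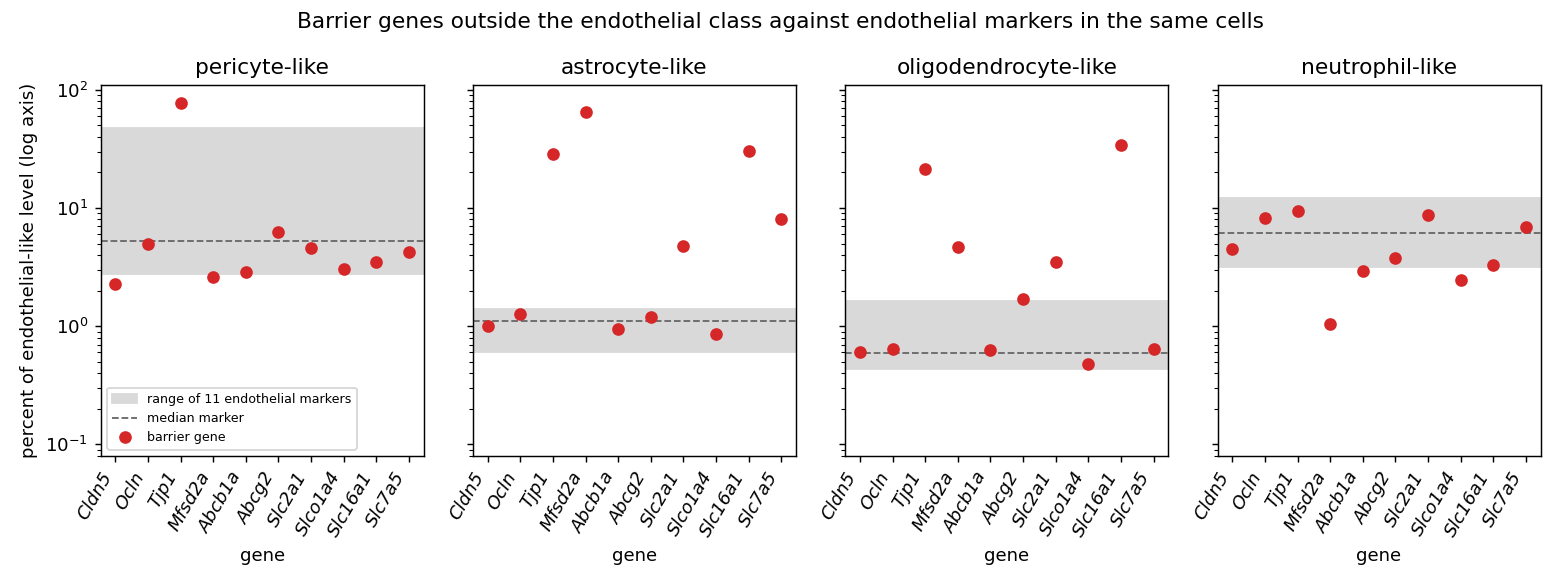
Level of each barrier gene outside the endothelium as a percent of its endothelial-like level (log axis) in 4 classes; grey bands span the 11 endothelial markers in the same cells and dashed lines their median. In neutrophil-like cells no gene lies above the band, while Mfsd2a at 64.8% and Slc16a1 at 30.2% stand far above it in astrocyte-like cells.

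Over the 12 classes, the genes whose log2(CPM + 1) followed Cldn5 most closely were Flt1, Ly6c1 and Egfl7, with Pearson's r of 0.990, 0.986 and 0.986. Ocln was most like Tek (r = 0.973) and Abcb1a most like Nostrin (r = 0.967), both endothelial genes, whereas Slc16a1 had no gene above 0.859 (Tgfa). Mfsd2a was closest to Efr3b (r = 0.895). The classes share libraries and depth, and these values are a description.

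Re-clustering of the endothelial-like cells, without the barrier genes, gave 12 subclusters, named from markers as capillary-like (936 cells), arterial-like (493), tip-like (343) and venous-like (109), with 676 cells unnamed. Another 168 cells, 39.9% of them called doublets, carried markers of another cell type, mostly microglial at a summed 7255 CPM. The tip-like subcluster was led by Apln, Pgf, Hmox1, Angpt2 and AA467197, and Apln, Pgf and Angpt2 are genes of angiogenic sprouting. Angpt2 was also among the leading genes of subcluster 6, which was named capillary-like. Tip markers had a mean log2 ratio to the median subcluster of 3.54 in tip-like cells, and reactive markers came next at 1.92. Of the tip-like cells, 118 were in library 4 and 192 in library 6, or 25.4% and 30.6% of the endothelial-like cells there, against 0.369% to 7.18% in the other libraries. The border between arterial-like, capillary-like and unnamed cells was not stable. With 5 further hemoglobin-rich cells kept there were 1567 capillary-like, 280 arterial-like and 237 unnamed cells, while tip-like and venous-like cells numbered 366 and 107. Libraries 1, 2 and 5 gave 34, 43 and 56 capillary-like cells, and tip-like cells were compared with capillary-like cells within library 4 and within library 6 first. Capillary-like cells came from 3 subclusters, 2, 3 and 6, with only 1, 0 and 2 capillary markers raised 2 times over the median subcluster. They were named by at least 3 capillary markers raised 2 times over arterial-like and venous-like subclusters, with capillary the best list. Unnamed subclusters 0 and 5 and arterial-like subcluster 1 had 5, 4 and 4 markers raised that way. The capillary-like reference is thus not set apart sharply by its markers. The libraries filled the 3 subclusters unequally. Subcluster 2 held 352 of the 380 capillary-like cells of library 3, subcluster 3 held 127 of 187 in library 4 and 225 of 236 in library 6, and subcluster 6 held 31, 37 and 41 in libraries 1, 2 and 5. Levels differed between them, with Slc2a1 at 3551, 3830 and 5068 CPM and Slc16a1 at 579, 297 and 411 CPM in subclusters 2, 3 and 6.

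Transporters and pumps were low in tip-like cells, and Cldn5 in both libraries and Slc2a1 in library 4 were the least different. All 10 genes were lower in tip-like than in capillary-like cells in both libraries, with every interval of the ratio below 1. The share of all genes with such an interval was not computed, so this count is not a result about these 10. Of the 10, 7 in library 4 and 9 in library 6 were at most 0.5 of the capillary-like level, against 11.2% and 14.3% of the 2185 and 2107 genes with at least 100 CPM in either type there. The median ratio of the 10 genes was 0.406 in library 4 and 0.254 in library 6, against 0.977 and 1.00 for those genes. Levels of all 6 libraries together gave 8 of 10, against 11.2% of the 1815 genes with a mean of at least 100 CPM over both types, and 0 of 10 at 2 times or more, against 8.93%.

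Slco1a4 had the lowest ratio in both libraries. It was at 235 CPM in tip-like and 1528 CPM in capillary-like cells of library 4, a ratio of 0.153 (0.125 to 0.187), and at 190 and 2660 CPM in library 6, a ratio of 0.0713 (0.0616 to 0.0822). Mfsd2a was at 115 against 690 CPM in library 4, a ratio of 0.167 (0.124 to 0.221), and at 57.7 against 589 CPM in library 6, a ratio of 0.0980 (0.0742 to 0.127). Both genes were thus the 2 with the lowest ratios of the 10 in each library.

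For Abcb1a the ratio was 0.345 (0.294 to 0.404) in library 4 and 0.145 (0.127 to 0.165) in library 6, and for Abcg2 it was 0.418 (0.357 to 0.487) and 0.263 (0.233 to 0.296). Slc7a5 had ratios of 0.377 (0.315 to 0.448) and 0.168 (0.136 to 0.207). For Slc16a1 they were 0.394 (0.287 to 0.533) and 0.244 (0.187 to 0.317). These pumps and carriers were lower in both libraries and lower still in library 6, although the intervals of Slc16a1 overlapped.

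Slc2a1 was near the capillary-like level in library 4 but not in library 6. It was at 2940 CPM in tip-like and 3349 CPM in capillary-like cells of library 4, a ratio of 0.878 (0.821 to 0.938), but at 1555 against 3936 CPM in library 6, a ratio of 0.395 (0.373 to 0.419). Over all 10 genes, the intervals of libraries 4 and 6 did not overlap for 6. The share over all genes was not computed, so this count is not a result about these 10. With 1 library each, the difference between libraries 4 and 6 has no replicate.

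Among the junction genes, Cldn5 was at 3401 against 3964 CPM in library 4, a ratio of 0.858 (0.807 to 0.912), and at 3104 against 4472 CPM in library 6, a ratio of 0.694 (0.663 to 0.727). Ocln had ratios of 0.482 (0.369 to 0.625) and 0.401 (0.307 to 0.522), and Tjp1 of 0.558 (0.468 to 0.664) and 0.458 (0.388 to 0.541). Cldn5 thus stayed within 1.5 times of the capillary-like level in both libraries, while Ocln and Tjp1 were near 0.5 of it.

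The 11 endothelial markers moved in both directions in tip-like cells of all libraries. Pecam1 was 2.09 times and Egfl7 1.34 times the capillary-like level, Emcn, Eng, Cd34 and Erg were between 0.961 and 1.07, and 5 were lower with intervals below 1, Tek at 0.385, Ptprb at 0.391, Flt1 at 0.652, Tie1 at 0.720 and Kdr at 0.838. Pericyte markers summed to 40.3 CPM in tip-like and 67.7 CPM in capillary-like cells and microglial markers to 34.4 and 76.3 CPM. Astrocyte markers summed to 459 and 170 CPM, and the highest of them in tip-like cells alone gave 440 CPM. Median depths were 4530 and 3195 UMIs, and 0% of either type were called doublets. The part of these values in the ratios was not tested.

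**Figure D3:**
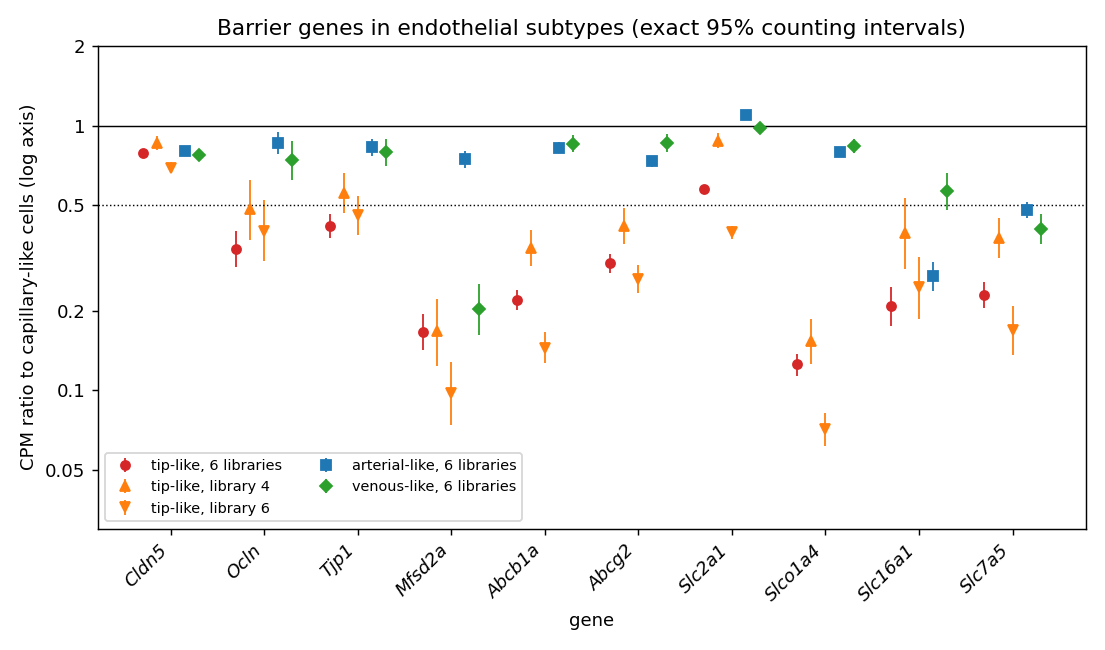
Ratio of each barrier gene's CPM to that in capillary-like cells (log axis) for tip-like, arterial-like and venous-like cells, with exact 95% counting intervals; the dotted line marks 0.5. Slco1a4 and Mfsd2a lie lowest in tip-like cells, Cldn5 stays between 0.694 and 0.858, and Mfsd2a is also low in venous-like cells at 0.203.

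Along the arterial to venous axis, Slc16a1 was lowest in pooled arterial-like and Mfsd2a in venous-like cells, while Slc7a5 was low in both. Pooled arterial-like cells held 0.269 (0.237 to 0.306) of the capillary-like level of Slc16a1 and 0.479 (0.446 to 0.514) of Slc7a5. In that pool the other 8 genes were between 0.732 and 1.10. Within the 6 libraries the ratio was 0.180 to 0.391 for Slc16a1 and 0.120 to 0.494 for Slc7a5. For Slco1a4 it was 0.440 to 0.777 and for Abcg2 0.439 to 0.719, so that the pooled ratios of 0.793 and 0.732 lay above every single library. Abcb1a was at 0.438 to 0.918 and Mfsd2a at 0.494 to 1.07 within libraries, and Ocln at 0.691 to 0.888. Tjp1 was at 0.587 to 0.956 and Cldn5 at 0.740 to 1.05. Slc2a1, at 1.10 over all libraries, was lower in arterial-like cells in libraries 1 and 2, at 0.719 (0.640 to 0.807) and 0.799 (0.723 to 0.883). In the other libraries Slc2a1 was at 0.942 to 1.10. At most 0.5 was reached by 1.7% of 1820 genes, and at least 2 times, which no barrier gene reached, by 1.81%. Arterial-like cells joined subclusters 1 and 9, of 424 and 69 cells, whose levels differed. Mfsd2a was at 547 and 98.5 CPM in them, against 128 CPM in venous-like and 628 CPM in capillary-like cells. Slco1a4 was at 1971 and 694 CPM, Abcg2 at 1045 and 467 CPM, Abcb1a at 1354 and 746 CPM and Slc7a5 at 525 and 39.9 CPM. Only Cldn5 was higher in subcluster 9, at 3649 against 3370 CPM. Venous-like cells held 0.203 (0.162 to 0.252) of Mfsd2a and 0.407 (0.357 to 0.463) of Slc7a5, against 5.37% of 1768 genes at most 0.5 and 4.07% at least 2 times higher. Slc16a1 was at 0.564 in venous-like cells, and the remaining 7 genes were between 0.742 and 0.983. Single libraries left that range, with Ocln at 0.437 in library 3, Abcb1a at 0.521 and Slco1a4 at 0.510 in library 6. Cldn5 was at 1.17 in library 5. The venous-like subcluster, led by Lcn2, Ackr1, Lrg1, Vcam1 and Ch25h, also scored high for reactive markers, with a mean log2 ratio of 3.50 against 4.18 for venous ones. Within libraries 3, 5 and 6, with 26, 28 and 26 venous-like cells, Mfsd2a was at 0.194, 0.440 and 0.0911 and Slc7a5 at 0.514, 0.393 and 0.201. The pooled ratios join cells of 6 libraries, whose mix differed between types. With the 5 cells kept, Slc7a5 in arterial-like cells was at 0.306, and with only the filters of the study's methods it was at 0.234 and Slc16a1 at 0.167.

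Across the numbered libraries, the level of the 10 genes in endothelial-like cells differed by up to 2.94 times. In 6 of the 10 the highest library was at least 2 times the lowest, against 30.1% of 1806 genes with at least 100 CPM in these cells. The median ratio was 2.14, against 1.69 for those genes. Library 6 was lowest for 7 genes, library 4 for 2 and library 5 for 1. Library 5 was highest for 5, library 2 for 3 and library 3 for 2. The same counts over all genes were not made.

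Slc7a5 was at 571, 538, 789, 594, 809 and 275 CPM in libraries 1 to 6, so that library 6 stood below the other 5. Slco1a4 was at 1924, 1769, 1613, 969, 2814 and 1298 CPM, with library 5 highest and library 4 lowest, a ratio of 2.90 (2.76 to 3.05). Slc16a1 was at 199, 277, 411, 200.4, 283 and 154 CPM, a ratio of 2.67 (2.40 to 2.98) of library 3 to library 6. The 3 carriers thus had different highest or lowest libraries.

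Slc2a1 was at 5838 and 6293 CPM in libraries 1 and 2 and between 2868 and 3973 CPM in the other 4, without overlap. Its ratio of highest to lowest was 2.19 (2.11 to 2.28). The same 2 libraries stood highest for Slc2a1 within capillary-like cells, at 7367 and 7783 CPM against 3349 to 3995 CPM. Those cells were mostly of subcluster 6 in libraries 1, 2 and 5 and of other subclusters elsewhere, and the part of this in the values was not tested.

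Abcb1a was at 909, 939, 1320, 811, 1580 and 885 CPM in libraries 1 to 6. Abcg2 was at 1137, 1135, 1026, 764, 1386 and 746 CPM. Both pumps were highest in library 5, and the ratios of highest to lowest were 1.95 and 1.86. Mfsd2a was at 386, 529, 516, 400, 455 and 282 CPM, a ratio of 1.88.

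Cldn5 varied least, at 3993, 4861, 3745, 3421, 3287 and 3724 CPM, a ratio of 1.48 (1.42 to 1.54). Ocln was at 226, 193, 316, 232, 326 and 139 CPM and Tjp1 at 374, 362, 657, 536, 522 and 316 CPM, with ratios of 2.36 and 2.08. Library 6 was lowest for both Ocln and Tjp1.

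Libraries 4 and 6 were the ones rich in tip-like cells, so values were also taken in capillary-like cells alone. There library 4 was lowest for 4 genes and libraries 1, 5 and 6 for 2 each, counts that were not made over all genes. In these cells 4 genes, Slc2a1, Slco1a4, Slc16a1 and Slc7a5, still differed at least 2 times. Abcb1a in library 6 was at 1670 CPM in capillary-like cells, against 885 CPM in all endothelial-like cells. Slc7a5 was lowest in library 6 in both sets, at 588 CPM in capillary-like and 275 CPM in all endothelial-like cells. The capillary-like cells of the libraries lay mostly in different subclusters. The part of tip-like cells in the library values was not tested.

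**Figure D4:**
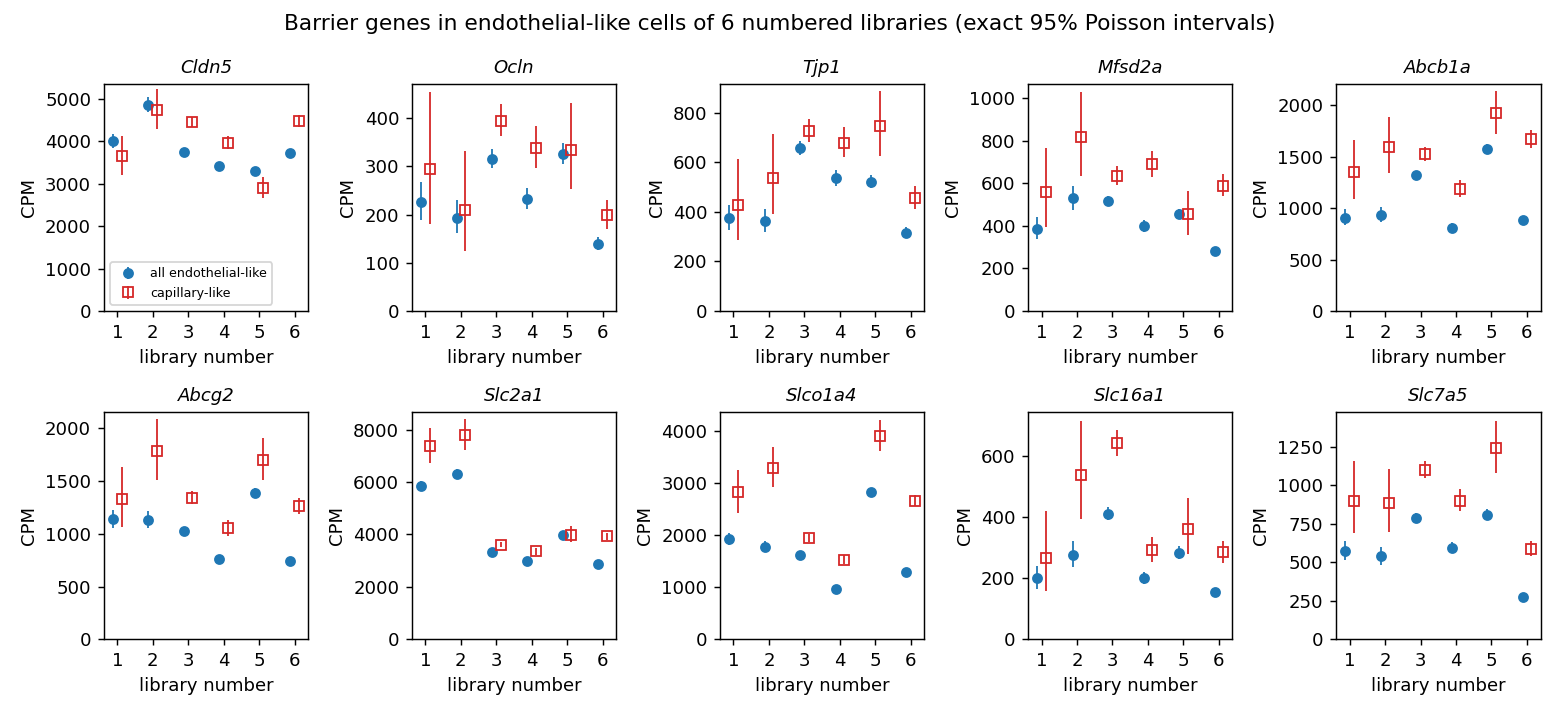
CPM of each barrier gene in all endothelial-like cells (filled) and in capillary-like cells (open) of libraries 1 to 6, with exact 95% Poisson intervals. Slc2a1 is highest in libraries 1 and 2 in both sets, and Slc7a5 in all endothelial-like cells is lowest in library 6 at 275 CPM.

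Of the 69 other pathway genes, 64 had at least 10 CPM in some class, and 23 of them were at least 2 times higher in endothelial-like cells than in every other class, against 2.59% of the 13975 genes. Another 12 were at least 2 times higher in another class than in every other, against 31.5%. Of these, Cldn3, Cgn and Tjp3 rest on few UMIs of the 22 choroid plexus-like cells, at 11.7, 11.7 and 41.0 CPM. In that class 3 UMIs make 17.6 CPM. The list was chosen as known barrier genes. Among junction genes 3 of 15 were endothelial by that rule, from Lsr, a receptor of tricellular junctions, at 12.9 times to Jam2 at 4.60 times, whereas Cldn10 was highest in astrocyte-like cells (922 CPM), Cldn11 in oligodendrocyte-like cells (3096 CPM) and Tjp3 in choroid plexus-like cells. Abcc4 was the single endothelial efflux pump of 5, at 12.3 times. Abcc3 was highest in microglia-like cells (62.6 CPM) and Abcc1 in monocyte-derived macrophage-like cells (60.7 CPM), at 4.70 and 2.18 times the next class. Of 17 solute carriers 10 were endothelial, from Slc38a5, a glutamine carrier, at 34.2 times to Slco1c1, a thyroxine carrier, at 2.09 times, and Slc2a3 was highest in neutrophil-like, Slc30a10 in pericyte-like and Slco2b1 in microglia-like cells. Receptors gave 2 of 5, Insr at 2.77 times and the transferrin receptor Tfrc at 2.12 times, while Lrp1 was highest in fibroblast-like cells. Caveolae genes gave 2 of 5, Cavin2 at 7.17 and Cav2 at 2.26 times, and Cavin1 was highest in smooth muscle-like cells. Of 17 genes of the Wnt and barrier programme 5 were endothelial, from the transcription factor Sox17 at 53.5 times to the Wnt receptor Fzd4 at 3.85 times.

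In tip-like cells, 19 of 38 listed genes tested in library 4 were at most 0.5 of the capillary-like level, against 11.2% of genes tested. In library 6 it was 24 of 35, against 14.3%. At least 2 times higher were 2 and 1 listed genes, against 10.8% and 12.2% of all genes tested. Solute carriers were at most 0.5 in 9 of 14 tested genes in library 4 and 11 of 13 in library 6. Bsg, the chaperone of monocarboxylate transporters, had ratios of 0.157 and 0.0937, and Slc22a8, an organic anion carrier, of 0.0942 and 0.0481. Of the junction genes 0 of 7 and 1 of 5 were at most 0.5, and Cdh5, the cadherin of endothelial adherens junctions, was 2.96 and 2.10 times higher in tip-like cells. Jam2 was at 0.974 in library 4 and 0.313 in library 6. Genes of the Wnt and barrier programme were at most 0.5 in 4 of 9 and 7 of 9, with Apcdd1 at 0.361 and 0.194 and Sox17 at 0.441 and 0.383. Receptors were at most 0.5 in 2 of 3 and 3 of 3, with Tfrc at 0.189 and 0.118, the efflux pump Abcc4 had ratios of 0.244 and 0.410, and caveolae genes were at most 0.5 in 3 of 4 and 1 of 4, with Cavin2 at 0.0777 and 0.239.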

How the data were processed

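Brain cells of 6 groups were profiled with 10x 3' kits, 1 library per group. The authors deposited unfiltered UMI counts for each gene in each barcode, from Cell Ranger 5.0.1 on mm10 per the labels, after its aggr step evened out depth between runs. A 3' tag count does not compare levels between genes. Per library, the cut on UMIs was 0.1 times the 99th percentile over the 3000 deepest barcodes, then cells needed at least 200 features, at most 10% mitochondrial and at most 1% hemoglobin UMIs (34 cells removed by the last rule, which was set after values were seen). The limit was lowered from 10%, because hemoglobin genes led an endothelial subcluster. This removed 5 more cells, and both settings are reported.

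Log-normalised counts, 2000 variable genes, 30 components (15, centred per library, for endothelial cells) and Leiden clustering at resolution 0.8 followed. A cluster took the marker list with the highest mean log2 ratio to the median cluster, with at least 3 markers raised 2 times. Capillary-like subclusters were named against arterial-like and venous-like ones, a rule set after values were seen. Cell names were rebuilt here. Doublets were called by the steps of Scrublet. CPM had exact Poisson, ratios exact conditional and shares Clopper-Pearson intervals, all for counting error only. Named genes were the members, a role list (per role the called genes with the highest and lowest ratio and up to 3 highest in another class), the most similar genes, markers and leading genes. Members and lists were chosen with earlier results of these data known. Alternatives changed filters, resolution, libraries, weighting and thresholds. Steps were tested on simulated data. Python 3.11.15, numpy 2.4.6, scipy 1.17.1, scikit-learn 1.9.0, igraph 0.11.9 and leidenalg 0.10.2 were used.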

Additional observations from a re-analysis of the deposited data

How the results depend on the processing

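The 6 counts over genes, recomputed 78 times in all, kept within 1.5 times of their values. The count of genes with a library ratio of at least 2 reached that limit on both sides, from 4 to 9 of 10, against 6. Of the values of single genes, 554 stayed within their counting interval, 313 moved beyond it in size and 3 changed direction. Only ratios between cell classes or between subtypes could change direction. Levels, shares of cells and ratios of the highest to the lowest library could not. Leaving out 1 library at a time, 10 of 10 genes were highest in endothelial-like cells and the same 8 were at least 2 times above every other class. In tip-like cells 7 to 9 genes were at most 0.5 of capillary-like, with Slc2a1 gained without library 4 and Tjp1 lost without library 6. The pathway count was 22 to 25 without 1 library, and 16 to 25 over all alternatives. Keeping every hemoglobin-rich cell left 819 endothelial-like cells and none named capillary-like, and it turned the ratio to the next class to 0.930 for Tjp1 and 0.752 for Mfsd2a, and lowered it to 1.12 for Slc16a1, which ended its call, and to 4.65 for Slc7a5. Without centring per library, the arterial-like ratio of Slc2a1 turned to 0.949, and the tip-like ratio of Mfsd2a was 0.330 and that of Slco1a4 0.229. Without library 6, the tip-like ratios of all libraries were 0.902 for Slc2a1 and 0.295 for Mfsd2a. Free RNA was also subtracted, at a share set from endothelial markers in microglia-like cells, 28.0% to 52.7% of UMIs per library. Of those markers, Cd34 at 117 CPM and Eng at 55.2 CPM were highest there, against 4.47 CPM of Flt1, so the share may be too high. After the subtraction, all 10 genes stayed highest in endothelial-like cells. The same amount per UMI was taken from every class of a library, so the order of classes within a library could not reverse. This outcome is therefore no finding on free RNA. The endothelial level of 8 rose by over 1.5 times, to 5715 CPM for Cldn5 and 2714 CPM for Slco1a4. Levels were divided by the UMIs left, which raises them by itself, so this rise is no finding about the genes. The mean of the cells' own CPM raised the ratio to the next class to 43.1 for Cldn5, 59.9 for Abcb1a and 57.2 for Slco1a4. Tip-like cells against all other unmixed endothelial cells gave at most 0.5 in 8 genes, and the 10% hemoglobin limit gave 8. Capillary-like cells alone gave 4 of 10 genes with a library ratio of at least 2, against 63.2% of 1828 genes. The causes were not tested. No paired analysis was possible because the library numbers are not tied to samples and each group has 1 library. Depth limits the classes of few cells: the 22 choroid plexus-like cells had 0 UMIs of Cldn5, with an upper limit of 21.6 CPM.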
